A study of Mus musculus with 1824 samples.

Results

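The genes described here are 10 members of the route that carries glucose into a cell and breaks it down to lactate, chosen by symbol from the 55487 genes of a single-cell RNA-seq table. Slc2a1 and Slc2a3 encode the glucose carriers GLUT1 and GLUT3. Hk1 and Hk2 encode hexokinases, which trap glucose in the cell as glucose 6-phosphate, and Pfkl encodes the liver-type subunit of phosphofructokinase, which commits the sugar to glycolysis. Aldoa (aldolase), Pgk1 (phosphoglycerate kinase, which yields ATP) and Pkm (pyruvate kinase) act further along the route. Ldha and Ldhb encode the subunits of lactate dehydrogenase, the tetramer that interconverts pyruvate and lactate. The 10 symbols matched 11 identifiers, since Aldoa had a second one, and each member is described below by its main identifier.

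RNA was captured by its poly-A tail from single cells of mouse chimaeras and amplified by Smart-seq2, which reads whole transcripts in wells and does not count molecules. The chimaeras were made by injecting embryonic stem cells that lack Tet1, Tet2 and Tet3 (Tet triple knockout) and carry an H2B-tdTomato label into wild-type C57BL/6J blastocysts, which CD1 females carried, and the labels give CD1 as the strain of every cell. The table held 1824 cells on 19 plates of 96 wells: 11 plates of embryonic day 7.5 (E7.5) and 8 of E8.5. At E7.5, embryos 1, 2, 4 and 5 had a plate each, 1 plate was named for chimaera and 6 carried a lane number. The labels did not say which cells were knockout and which host, nor which sort gate a well came from, so the genotypes were not compared. No animal was named at E8.5, so E8.5 counted as 1 sample and stages were compared without a test, with the range over plates as the spread. After cells with fewer than 100000 reads were left out, and 15 more with too many mitochondrial or ribosomal reads, 1634 remained, at 57 to 94 per E7.5 plate and 76 to 92 per E8.5 plate, with a median of 678018 reads per cell. Values are CPM, the reads of a gene per 1e+06 reads of the summed cells. Intervals hold counting error alone, because copies made by PCR are not separate molecules.

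In the early mouse embryo, glucose uptake and glycolysis are strong in the epiblast and the primitive streak. The visceral endoderm, which feeds the embryo before the placenta works, is a transporting epithelium that takes up maternal nutrients. GLUT1 and GLUT3 both carry glucose without energy cost, and hexokinase 1 and hexokinase 2 differ in where and when they are used, hexokinase 1 being the form of red cells and brain and hexokinase 2 that of muscle and of many growing cells. The A subunit of lactate dehydrogenase dominates in muscle and other glycolytic tissues, the B subunit in heart.

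Promoter sequence from RefSeq (GRCm38.p6) was found for 9 of the members, in 14 windows, and none was given for Slc2a3. In the 250 bases before the start site, the letters ACGTG, the core bound by hypoxia-inducible factors, were searched on both strands, overlapping matches such as those within CACGTG counting as 1. They stood in 16.6% of all 32851 windows and in at least 1 window of 6 of the members: Slc2a1, Hk2, Aldoa, Pgk1, Pkm and Ldha. The share counts windows, while the member count takes any window of a gene, and 5 of the 9 members had 1 window. The 2 are therefore unlike measures. The paralog pairs whose levels differ most below are shown for comparison, 5′ to 3′ on the strand of the gene, with ACGTG or its reverse CACGT in capitals. No exon of GENCODE M21 overlaps the bases shown, and the Ldha window lies between exons of the longer Ldha gene model. Ldha (chr7:46845554-46845803, plus strand) held 3 sites, which begin at -145, -48 and -34 from the start site, and those at -145 and -48 were the palindrome CACGTG. Ldhb (chr6:142507958-142508207, minus strand) held none. Hk2 (chr6:82774455-82774704, minus strand) held 2, at -226 and -52, and Hk1 (chr10:62379909-62380158, minus strand) held none.
Ldha: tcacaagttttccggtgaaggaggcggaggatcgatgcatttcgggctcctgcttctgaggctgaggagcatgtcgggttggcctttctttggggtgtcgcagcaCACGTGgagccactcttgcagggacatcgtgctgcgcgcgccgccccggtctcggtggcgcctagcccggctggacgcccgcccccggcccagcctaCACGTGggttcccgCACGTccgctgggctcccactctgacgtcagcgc
Ldhb: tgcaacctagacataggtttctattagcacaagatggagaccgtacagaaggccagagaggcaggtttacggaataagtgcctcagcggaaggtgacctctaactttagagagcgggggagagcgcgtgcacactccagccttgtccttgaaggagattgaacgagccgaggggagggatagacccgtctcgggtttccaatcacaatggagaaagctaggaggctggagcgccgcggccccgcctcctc
Hk2: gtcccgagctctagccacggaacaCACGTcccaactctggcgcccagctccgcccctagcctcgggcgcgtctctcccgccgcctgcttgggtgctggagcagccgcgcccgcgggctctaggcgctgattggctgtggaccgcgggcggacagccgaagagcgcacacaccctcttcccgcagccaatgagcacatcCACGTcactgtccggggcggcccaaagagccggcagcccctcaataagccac
Hk1: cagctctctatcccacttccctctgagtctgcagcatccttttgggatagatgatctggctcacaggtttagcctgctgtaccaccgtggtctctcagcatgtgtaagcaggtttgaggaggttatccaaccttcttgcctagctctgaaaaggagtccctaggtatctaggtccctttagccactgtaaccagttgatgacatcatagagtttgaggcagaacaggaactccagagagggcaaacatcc
The Hk1 window shown had 1 CpG dinucleotide, against 25 each in the Hk2 and Ldha windows shown, 14 in the Ldhb window and a median of 6 over all windows. Hk1 and Ldha each had another window, with 0 sites. These other windows had 14 CpG dinucleotides for Hk1 and 9 for Ldha, so the low count of Hk1 holds for 1 of its start sites. A match of 5 letters is a description and not a bound site.

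Over all 1634 cells, Ldha gave the highest level at 5076 CPM and Hk1 the lowest at 30.4 CPM. Levels of different genes can be compared per kilobase of exon, and on that scale Ldha stood at 1534 CPM per kb, followed by Aldoa at 736.3, Pkm at 453.9, Pgk1 at 315.8 and Slc2a1 at 286.2. Ldhb (96.8), Slc2a3 (93.3) and Pfkl (80.5) were close to one another, while Hk2 (20.1) and Hk1 (3.57 CPM per kb) were lowest. Both hexokinase genes were thus read less often per length than any other member. With each cell thinned to 100000 reads, Ldha, Pkm and Aldoa had at least 1 read in 100% of cells at both stages. Ldhb had a read in 78.3% of E7.5 cells (exact 95% interval 75.5 to 80.9%) and in 29.5% of E8.5 cells (26.1 to 33.02%), and in 3.47% of E8.5 erythroid-like cells, a type in which its CPM was near 0. Hk2 had a read in 94.8% of cells at E7.5 and 62.3% at E8.5. Hk1 had one in 41.3% and 48.2%.

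Between the stages, Hk2 and Ldhb were lower at E8.5, and the other 8 members differed by less than 2-fold. Of the 10 members, 2 were at least 2-fold lower and 0 at least 2-fold higher, beside 8.23% and 6.99% of the 9886 genes with at least 10 CPM at either stage. The median log2 ratio of the members was -0.19, against 0.08 over those genes. The plot of members by plate gives each plate's value.

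Hk2 (ENSMUSG00000000628, chromosome 6, 82725025 to 82774454, minus strand, GRCm38) had 166.6 CPM at E7.5 and 41.02 CPM at E8.5, a log2 ratio of -1.996. Its E7.5 plates ran from 100.3 CPM on lane plate 1 through a median of 184.1 to 259.4 CPM on lane plate 5. The 8 E8.5 plates gave 12.7, 31.2, 55.3, 52.1, 22.6, 11.7, 72.4 and 81.7 CPM. Every E8.5 plate lay below every E7.5 plate, as for 1.41% of the 9886 genes (0.384% had every E8.5 plate above). Hk2 was the member for which the stages did not overlap. Leaving out each plate in turn kept the log2 ratio between -2.26 and -1.76.

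Ldhb (ENSMUSG00000030246, chromosome 6, 142490249 to 142507957, minus strand) had 217.9 CPM at E7.5 and 40.5 CPM at E8.5, a log2 ratio of -2.40. Its plates spread more widely than those of any other member, with an SD of 1.54 on the log2 scale within stages. At E7.5 they ran from 21.8 CPM on lane plate 1 through a median of 176.8 to 554.6 CPM on lane plate 5. The E8.5 plates gave 13.8, 12.01, 10.9, 28.6, 8.59, 10.1, 115.9 and 114.8 CPM. E8.5 plates 4, 7 and 8 stood within the E7.5 range and the other 5 E8.5 plates lay below it.

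Both carriers had a higher pooled level at E8.5, by less than 2-fold, but a lower median of plates. Slc2a1 (ENSMUSG00000028645, chromosome 4, 119108711 to 119137983, plus strand) had 913.7 CPM at E7.5 and 1155 CPM at E8.5. Its E8.5 plates spanned 248.3 to 2997 CPM, and without E8.5 plate 8 the log2 ratio of 0.34 became -0.13. Slc2a3 (ENSMUSG00000003153, chromosome 6, 122727809 to 122801640, minus strand) had 540.5 and 905.7 CPM, a log2 ratio of 0.74. Its plate medians went the other way, 514.5 CPM at E7.5 and 395.5 CPM at E8.5, since E8.5 plates 1, 7 and 8 held 1678, 1403 and 1497 CPM and the other 5 between 223.3 and 503.5 CPM.

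Hk1 (ENSMUSG00000037012, chromosome 10, 62268855 to 62379908, minus strand) had 24.4 CPM at E7.5 and 40.6 CPM at E8.5, a log2 ratio of 0.71 that became 1.18 without E7.5 lane plate 1. The remaining enzymes differed little. Pfkl (ENSMUSG00000020277) had a log2 ratio of -0.53, Pkm (ENSMUSG00000032294) of -0.42, Aldoa (ENSMUSG00000030695) of -0.23, Ldha (ENSMUSG00000063229) of -0.16 and Pgk1 (ENSMUSG00000062070) of -0.06, and the plates of the stages overlapped for each. The sign of the Pgk1 value turned without E8.5 plate 1 (0.10). Ldha ranged from 3762 to 7585 CPM over E7.5 plates and from 3231 to 5639 CPM over E8.5 plates. The depth of the plates differed too, with median reads per cell of 224956 to 1699478.5 at E7.5 and of 420157 to 1141636 at E8.5. The part of depth, of collection and of protocol in these differences was not tested.

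**Figure D1:**
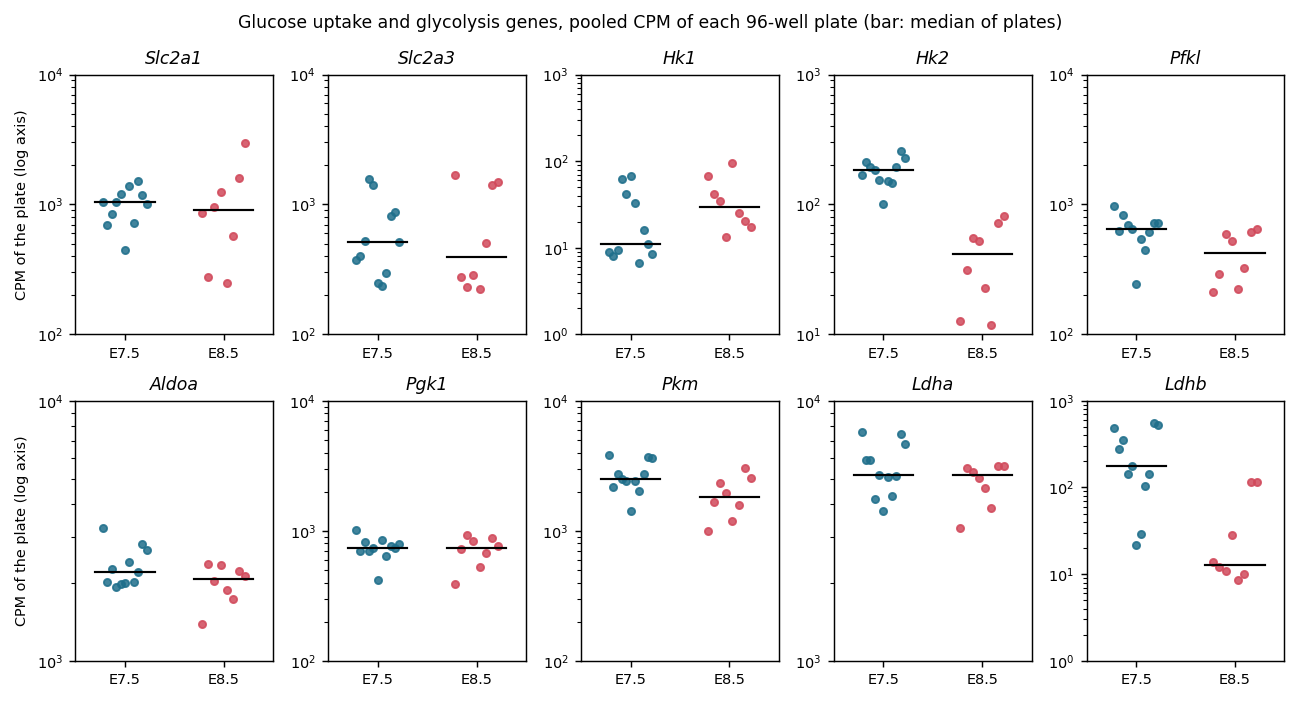
CPM of each member on each of the 11 E7.5 and 8 E8.5 plates (points; log axis, with a separate range per gene), with the median of the plates as a bar. The Hk2 points of E8.5 all lie below those of E7.5, and the Ldhb points of E8.5 lie between 8.59 and 115.9 CPM.

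Cells were grouped into 25 clusters without the 10 members and the other genes listed here, and the clusters were named for 16 classes by marker genes, with "-like" added since the names rest on markers. Haemoglobin genes took 8.38 and 16.5% of the reads of erythroid-like cells and at most 0.961% in any other class. Class and plate were often hard to separate: 60 of the 64 erythroid-like cells of E7.5 came from lane plate 1, 17 of the 20 visceral endoderm-like cells of E8.5 from plate 1, and the 41 megakaryocyte-like cells from E8.5 plate 5. In each class, the level was set beside that of the other cells of its stage, with no test since classes were taken from the same cells. Ldhb, Slc2a3, Slc2a1 and Hk1 differed between classes by far more than Ldha, Aldoa and Pgk1 did. At E8.5, for example, the ratio of the highest to the lowest class was 2.52 for Ldha and 79.2 for Slc2a3.

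Slc2a3 was highest in visceral endoderm-like cells, with 4068 CPM at E7.5 (26 cells) and 6959 CPM at E8.5 (20 cells), 3.11 and 3.59 on the log2 scale above the other cells. Surface ectoderm-like cells came next, with 4438 CPM at E8.5 (52 cells, 3885 and 4954 CPM on the 2 plates with at least 5 of them) and 3522 CPM in the 5 cells of E7.5. Definitive endoderm-like cells of E7.5 had 1910 CPM and extraembryonic ectoderm-like cells 1323 CPM. Extraembryonic mesoderm and allantois-like cells of E7.5 had 595.9 CPM and epiblast-like cells 379.8 CPM. Slc2a3 was 99.9 CPM in nascent mesoderm-like cells, 131.6 CPM in erythroid-like cells of E7.5 and 87.9 CPM in those of E8.5. The plate ranges of definitive endoderm-like (1050.5 to 2406 CPM) and extraembryonic ectoderm-like cells (964.9 to 1952 CPM) overlapped, so these neighbours in the order did not differ beyond their spread.

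Slc2a1 had another order. At E8.5 it was highest in surface ectoderm-like cells at 3280 CPM and in extraembryonic mesoderm and allantois-like cells at 2974 CPM, whose 3 plates spanned 1098 to 5260 CPM. At E7.5 it led in the surface ectoderm-like (2331 CPM) and neural ectoderm-like cells (1924 CPM), followed by extraembryonic ectoderm-like (1465 CPM) and epiblast-like cells (1294 CPM). Slc2a1 was low in the blood classes: 348.2 and 516.7 CPM in erythroid-like, 212.8 CPM in blood progenitor-like, and 208.7 and 135.3 CPM in myeloid-like cells. In haematoendothelial-like cells it was near the level of all cells, 1001.4 CPM at E7.5 and 907.2 CPM at E8.5.

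The hexokinases split the classes. Hk1 was highest in megakaryocyte-like cells (114.1 CPM), extraembryonic ectoderm-like cells (92.8 CPM) and erythroid-like cells (82.3 CPM at E7.5 and 73.4 CPM at E8.5), with myeloid-like cells at 52.97 and 79.6 CPM. In nascent mesoderm-like, definitive endoderm-like and visceral endoderm-like cells of E7.5 it lay between 3.04 and 4.37 CPM, and in visceral endoderm-like cells of E8.5 it was 0.235 CPM (0.0861 to 0.511). Hk2 was highest at E7.5 in caudal epiblast and neuromesodermal-like (239.5 CPM), epiblast-like (238.6 CPM) and primitive streak-like cells (232.5 CPM). The plate ranges of these 3 classes overlapped. At E8.5 Hk2 was highest in neural ectoderm-like (118.3 CPM) and caudal epiblast and neuromesodermal-like cells (104.9 CPM), and stood at 10.99 CPM in blood progenitor-like, 10.6 CPM in megakaryocyte-like and 18.1 CPM in erythroid-like cells.

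Ldhb followed the early embryonic classes. It was 574.2 CPM in epiblast-like, 525.5 CPM in primitive streak-like and 292.5 CPM in nascent mesoderm-like cells. In blood it was close to 0: 2.73 CPM in erythroid-like cells of E7.5 (2.38 to 3.13), 2.57 CPM in those of E8.5 (2.30 to 2.87) and 2.28 CPM in blood progenitor-like cells (1.78 to 2.88). At E8.5 the highest class was surface ectoderm-like at 155.7 CPM, followed by caudal epiblast and neuromesodermal-like (121.5 CPM) and neural ectoderm-like cells (117.2 CPM), which overlapped in their plate ranges. Ldha was 6893 CPM in primitive streak-like and 6769 CPM in epiblast-like cells and 3801 CPM in erythroid-like cells of E7.5, and so was read often both where Ldhb was high and where it was near 0. Pkm, whose product makes pyruvate, was 3506 CPM in neural ectoderm-like cells of E7.5 and 699.2 CPM in visceral endoderm-like cells of E8.5, and Pfkl was 134.2 CPM in the latter.

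**Figure D2:**
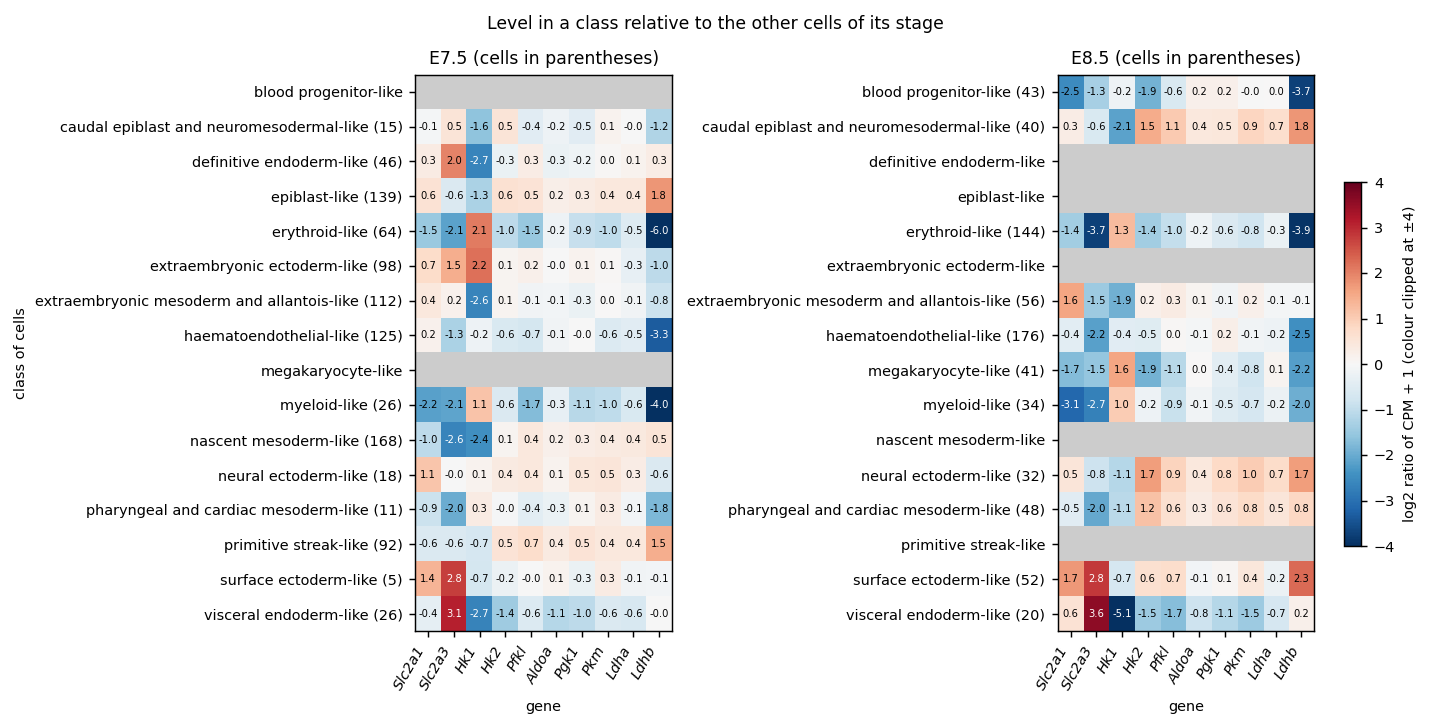
Log2 ratio of each member (columns) between a class (rows, with its number of cells) and the other cells of the same stage, on CPM + 1; red is higher, blue lower, and grey marks classes with fewer than 5 cells at that stage. Slc2a3 is highest in visceral endoderm-like cells, at 3.11 and 3.59, and Ldhb is lowest in erythroid-like cells, at -6.01 and -3.91.

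The named embryos allowed a test. For 7 classes of E7.5 with at least 5 cells in at least 2 of the 4 embryos, reads were summed by embryo and class, and each class was compared with nascent mesoderm-like cells within embryos (edgeR quasi-likelihood test over 17246 genes, called at an adjusted p below 0.01 and at least 2-fold). Of the classes found in all 4 embryos, nascent mesoderm-like cells were the more numerous, at 85 against 47 primitive streak-like cells. Classes were built from the same cells, though without these genes. The paper found that injected cells did not contribute to extraembryonic ectoderm. Genotype and class may thus be mixed in the comparison of that class, and this was not tested. The labels give the genotype of no cell, so the share of knockout cells in the other classes, visceral endoderm-like included, is not known either. Slc2a3 was called higher in every one of the 6 classes compared. Read against all genes, 4 of 10 members called in visceral endoderm-like cells (1 higher, 3 lower) stand beside 3.93% of genes called higher and 3.58% called lower. In extraembryonic ectoderm-like cells, 3 were called higher beside 2.2% and 1 lower beside 3.24% of genes. Definitive endoderm-like, epiblast-like and extraembryonic mesoderm and allantois-like cells each had 2 members called higher, beside 0.47%, 1.14% and 0.441% of genes, and 0 lower, beside 0.191%, 1.25% and 0.255%. Primitive streak-like cells had 1 called higher, beside 0.278%, and 0 lower, beside 0.139%. The 6 comparisons share the nascent mesoderm-like sums.

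The nascent mesoderm-like sums had 85.4, 105.01, 107.9 and 122.2 CPM of Slc2a3 in embryos 1, 2, 4 and 5. Visceral endoderm-like sums had 5419 and 3166 CPM in embryos 4 and 5, a log2 fold change of 5.31 ± 0.26 (SE; edgeR adjusted p = 3.8e-08). No embryo overlapped between these classes, and the same held for each of the other 5. The share of all genes without such overlap was not counted. Nascent mesoderm-like cells had the lowest Slc2a3 of the 14 classes of E7.5, so each comparison starts from a low reference. Definitive endoderm-like cells were at 1537 and 2238 CPM in embryos 1 and 2 (log2 fold change 4.31 ± 0.25), and extraembryonic ectoderm-like cells at 1250 and 1510 CPM in embryos 4 and 5 (3.61 ± 0.25). Extraembryonic mesoderm and allantois-like cells had between 928.1 and 1222 CPM in embryos 1, 2 and 5 (3.33 ± 0.22). Primitive streak-like cells had 398.8, 301.7, 502.5 and 607.2 CPM (2.02 ± 0.20, edgeR adjusted p = 0.00020) and epiblast-like cells 362.8, 345.2 and 321.3 CPM in embryos 1, 2 and 4 (1.78 ± 0.22, edgeR adjusted p = 0.00017). With sums of at least 10 cells, which left fewer sums, the Slc2a3 call was lost in primitive streak-like (1.76, edgeR adjusted p = 0.11) and epiblast-like cells (1.88, edgeR adjusted p = 0.024).

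Slc2a1 was called higher in 4 of the 6 classes: extraembryonic ectoderm-like (log2 fold change 1.73 ± 0.13), extraembryonic mesoderm and allantois-like (1.57 ± 0.11), epiblast-like (1.55 ± 0.11) and definitive endoderm-like cells (1.02 ± 0.13). In the nascent mesoderm-like sums it was 410.4, 420.8, 367.9 and 524.3 CPM, against 1309 and 1572 CPM in extraembryonic ectoderm-like cells of embryos 4 and 5. The groups did not overlap for any of the 4, and the share of all genes without such overlap was not counted. The definitive endoderm-like call stood just past 2-fold and was lost in 4 of 7 alternatives, with log2 fold changes of 0.92 to 0.97 there. In visceral endoderm-like cells the log2 fold change was 0.87 ± 0.13 (edgeR adjusted p = 0.0003), under 2-fold, and in primitive streak-like cells 0.43 ± 0.10 (edgeR adjusted p = 0.053).

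Of the hexokinases, Hk1 was called higher in extraembryonic ectoderm-like cells, with 104.6 and 86.99 CPM in embryos 4 and 5 against 1.75 to 6.75 CPM in nascent mesoderm-like cells of the 4 embryos (log2 fold change 4.51 ± 0.68, edgeR adjusted p = 0.00044). Hk2 was called lower in visceral endoderm-like cells, with 60.5 and 57.98 CPM against 141.8 to 201.2 CPM (-1.61 ± 0.24, edgeR adjusted p = 0.00040). Whether the hexokinase differences of these extraembryonic classes differ from each other was not tested.

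Visceral endoderm-like cells were also called lower in Aldoa (-1.16 ± 0.11) and Pgk1 (-1.18 ± 0.14), and Ldha had a log2 fold change of -0.85 ± 0.07 there, under 2-fold (edgeR adjusted p = 3.4e-06). Aldoa was 800.1 and 952.8 CPM in embryos 4 and 5, against 1847 to 2315 CPM in nascent mesoderm-like cells. In this class a carrier gene was called higher and 3 enzymes of the route lower. Ldhb was called lower in extraembryonic ectoderm-like cells, with 67.8 and 66.02 CPM against 194.1 to 328.05 CPM (-1.996 ± 0.41, edgeR adjusted p = 0.0047), a call lost without embryo 1 or embryo 2 (edgeR adjusted p = 0.012 and 0.011). Its values in extraembryonic mesoderm and allantois-like (-1.64 ± 0.35, edgeR adjusted p = 0.025) and epiblast-like cells (1.09 ± 0.32, edgeR adjusted p = 0.069) did not pass.

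**Figure D3:**
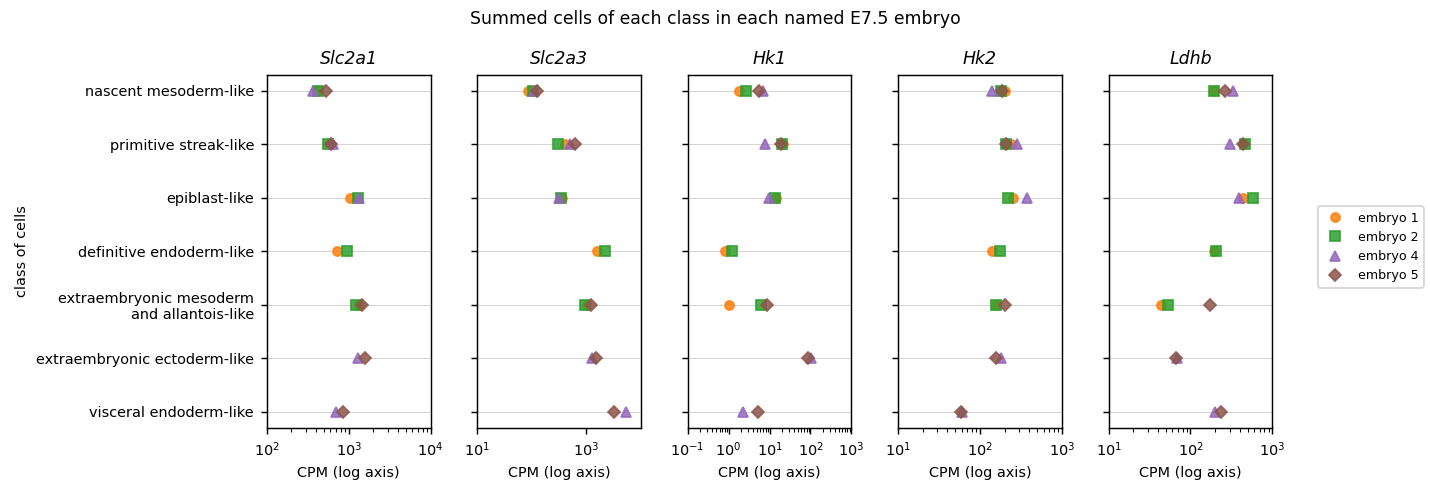
CPM (log axis, with a separate range per gene) of 5 members in the summed cells of each class (rows) of embryos 1, 2, 4 and 5, for sums of at least 5 cells. The Slc2a3 points of nascent mesoderm-like cells, at 85.4 to 122.2 CPM, lie left of those of every other class.

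Slc2a1 and Slc2a3 were compared per kilobase of exon, since their transcripts differ in length. Over all cells the log2 ratio of Slc2a1 to Slc2a3 was 1.80 at E7.5 and 1.40 at E8.5. It was above 0 on each of the 19 plates, from 0.09 on E8.5 plate 1 to 3.60 on E7.5 lane plate 2. By class the ratio was below 0 in visceral endoderm-like cells, at -1.47 at E7.5 (embryos 4 and 5 gave -1.89 and -0.85) and -1.01 at E8.5, and above 0 in each other class. It was near 0 in definitive endoderm-like cells (0.28 in all, -0.04 and -0.17 in embryos 1 and 2), in blood progenitor-like cells (0.22) and in surface ectoderm-like cells (0.45 and 0.61). The carriers were read together in most cells: at 100000 reads, 90.5% of E7.5 cells and 82.6% of E8.5 cells had reads of both. Slc2a1 alone was found in 8.89% and 14.8%, and Slc2a3 alone in 0.423% and 1.74%. At the other end of the order stood extraembryonic mesoderm and allantois-like cells of E8.5 (4.14) and erythroid-like cells of E8.5 (3.60).

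Ldha exceeded Ldhb per kilobase on every plate and in every class. The log2 ratio was 3.52 at E7.5 (plates 2.63 to 6.37) and 5.79 at E8.5 (plates 4.52 to 7.99). Epiblast-like (2.48), primitive streak-like (2.64) and visceral endoderm-like cells of E7.5 (2.92) held the lowest ratios, and blood progenitor-like (9.95) and erythroid-like cells (9.37 and 9.56) the highest. Every cell had at least 1 read of Ldha at 100000 reads, so cells differed by Ldhb: 100% of primitive streak-like, 98.8% of nascent mesoderm-like and 97.1% of epiblast-like cells had both. Both were read in 35.2% of haematoendothelial-like cells of E7.5 and 16.5% of those of E8.5, and in 4.69% and 3.47% of erythroid-like cells.

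The hexokinase ratio turned between classes. Hk1 over Hk2 was -3.29 at E7.5 and -0.53 at E8.5 on the log2 scale per kilobase, below 0 on each E7.5 plate and above 0 on 3 of the 8 E8.5 plates. At E8.5 it was above 0 in the blood classes, with 2.91 in megakaryocyte-like, 1.51 in erythroid-like, 1.16 in blood progenitor-like and 0.66 in myeloid-like cells. In haematoendothelial-like cells it was -0.49, and in the remaining classes of E8.5 between -6.50 and -1.75. At E7.5 the erythroid-like cells had -0.55, the highest of that stage. With the longest transcript in place of all exons as the length, Hk1 counts for more, and the ratios over all cells became -2.40 and 0.35. By class, the value turned above 0 in erythroid-like cells of E7.5 (0.34) and haematoendothelial-like cells of E8.5 (0.39) and kept its sign in the others, so which hexokinase led over all cells of E8.5 and in these classes depended on the length used.

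**Figure D4:**
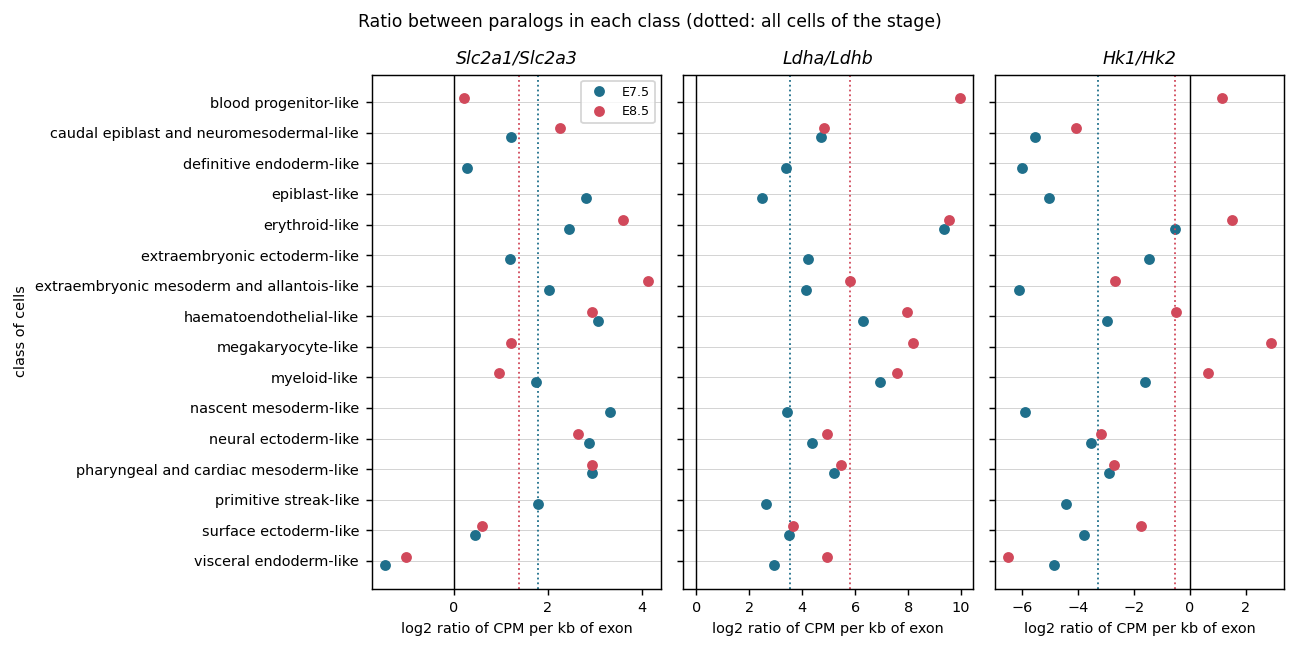
Log2 ratio of CPM per kilobase of exon between paralogs in each class (rows) at E7.5 and E8.5 (points), with the ratio over all cells of the stage as a dotted line; 0 is equal level. Slc2a1 over Slc2a3 is below 0 in visceral endoderm-like cells (-1.47 and -1.01), and Hk1 over Hk2 is above 0 in 4 classes of E8.5.

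The stages differ in their mix of classes, so the ratio of E8.5 to E7.5 was also taken within the 9 classes that had at least 5 cells at both stages. The lower Hk2 at E8.5 was found in each of them. Its log2 ratio ran from -2.16 in erythroid-like to -0.85 in neural ectoderm-like cells, with a median of -1.66, and 7 of the 9 were at least 2-fold lower. A single direction was not particular to Hk2. Of the other listed genes, Pgam1, Slc16a1 and Bnip3 were lower in all 9 classes, and Gapdh, Gpi1 and Tpi1 higher in all 9. The share of all genes with a single direction was not counted. Of all genes, those at least 2-fold lower at E8.5 made up 14.8% in caudal epiblast and neuromesodermal-like, 13% in erythroid-like, 12.8% in extraembryonic mesoderm and allantois-like, 8.91% in haematoendothelial-like, 14.6% in myeloid-like, 15.7% in neural ectoderm-like, 17% in pharyngeal and cardiac mesoderm-like, 16.5% in surface ectoderm-like and 22.1% in visceral endoderm-like cells. Those at least 2-fold higher made up 13.6% in caudal epiblast and neuromesodermal-like, 6.35% in erythroid-like, 15.2% in extraembryonic mesoderm and allantois-like, 8.41% in haematoendothelial-like, 13.1% in myeloid-like, 20% in neural ectoderm-like, 18.1% in pharyngeal and cardiac mesoderm-like, 29.1% in surface ectoderm-like and 13.2% in visceral endoderm-like cells. In haematoendothelial-like cells Hk2 was 116.2 CPM at E7.5 (4 plates, 76.6 to 134.4) and 30.8 CPM at E8.5 (3 plates, 9.78 to 49.3). In extraembryonic mesoderm and allantois-like cells it was 177.8 CPM (7 plates, 121.4 to 202.8) and 46.997 CPM (3 plates, 27.2 to 106.04). In caudal epiblast and neuromesodermal-like cells it was 239.5 CPM (2 plates, 233.1 and 254.8) and 104.9 CPM (2 plates, 70.1 and 114.7). In these 3 classes no plate of E8.5 reached a plate of E7.5. They are the classes with at least 2 plates of at least 5 cells at each stage. With so few plates many genes may separate, and the share of all genes that did was not counted.

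Ldhb was less uniform. It was at least 2-fold lower at E8.5 in visceral endoderm-like (-2.17), extraembryonic mesoderm and allantois-like (-1.74) and haematoendothelial-like cells (-1.45), and between -0.38 and 0.35 in the other 6 classes. The difference of -2.40 over all cells was thus not matched within most classes, and the classes with the highest Ldhb at E7.5, epiblast-like, primitive streak-like and nascent mesoderm-like, had 0, 1 and 1 cells at E8.5. For Slc2a3 the within-class values ran from -0.77 to 0.77, with 4 classes above 0 and 5 below. Slc2a1 was 1.35 higher in extraembryonic mesoderm and allantois-like and 1.23 higher in visceral endoderm-like cells. In visceral endoderm-like cells Hk1 (-1.71), Pfkl (-1.63) and Pkm (-1.27) were also lower at E8.5, where 22.1% of all genes were at least 2-fold lower. Aldoa, Pgk1 and Ldha stayed within 2-fold in the 9 classes.

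In 6 of these 9 classes the cells of both stages came from 1 and the same cluster, and in 3 they did not. Haematoendothelial-like cells of E7.5 came mostly from clusters 8, 1 and 21 and those of E8.5 from clusters 1 and 7. Erythroid-like cells of E7.5 came from cluster 9 and those of E8.5 from clusters 6 and 10. Of the extraembryonic mesoderm and allantois-like cells of E7.5, 97 came from cluster 3, 9 from cluster 17 and 6 from cluster 24, while those of E8.5 came from clusters 17 (41 cells) and 24 (15 cells). The Hk2, Ldhb and Slc2a1 values of that class stand between these different mixtures. A ratio within a class can hold a difference between such clusters or between the protocols of the stages, and neither part was tested.

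**Figure D5:**
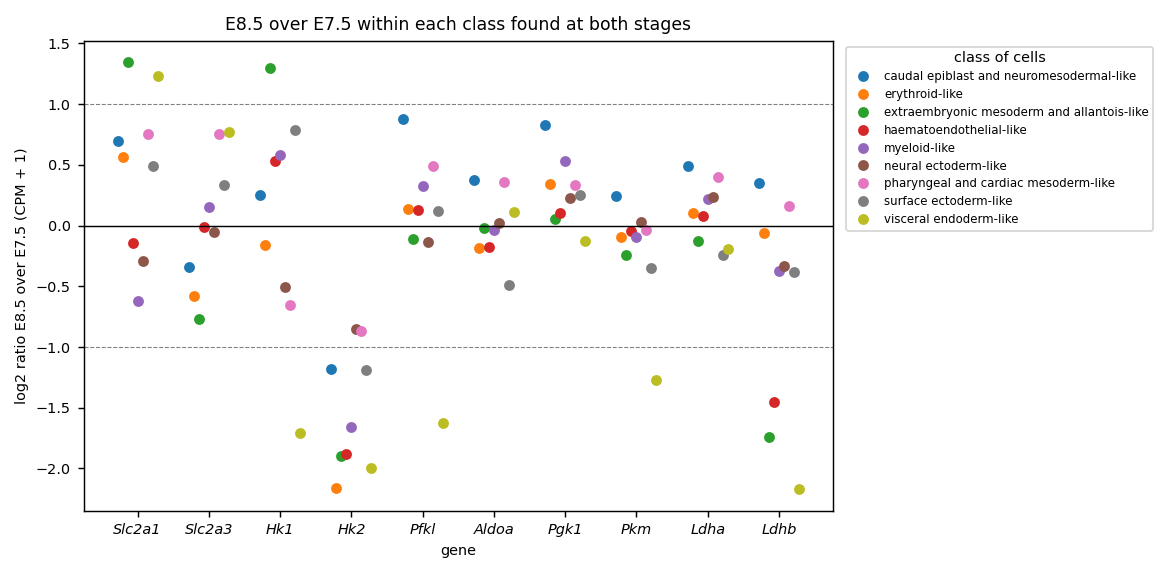
Log2 ratio of E8.5 to E7.5 on CPM + 1 for each member within the 9 classes found at both stages (points, coloured by class; dashed lines mark 2-fold). The 9 Hk2 points lie between -2.16 and -0.85, below 0 in each class, while those of Ldha lie between -0.24 and 0.49.

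The other genes of the route were taken from lists of 16 further glycolysis enzymes, 8 hexose carriers, 10 genes of pyruvate and lactate handling and 11 genes of the hypoxia response. Over all 9886 genes with at least 10 CPM at either stage, 6.99% were at least 2-fold higher at E8.5 and 8.23% lower. The counts below stand beside these shares, and a count of 1 in a list of 8 or 9 genes does not stand out from them. Of the 11 further enzymes with at least 10 CPM at either stage, 3 were at least 2-fold higher at E8.5 and 0 lower, with a median log2 ratio of 0.51. Among them were Pklr (1.13 and 13.6 CPM), the pyruvate kinase of liver and red cells, and Bpgm (29.2 and 66.9 CPM), which makes the 2,3-bisphosphoglycerate of red cells. The plates of both overlapped between stages. E8.5 plate 1 carried these values, and held 73 erythroid-like cells beside 17 of the 20 visceral endoderm-like cells of E8.5. Without this plate the log2 ratio of Pklr went from 2.77 to -0.20 and that of Bpgm from 1.17 to 0.41. Of the 3 genes, 0 then stayed at least 2-fold higher. Which class of cells on the plate gave the reads was not tested. Of the carriers, 2 of 8 passed 10 CPM: Slc2a2, the GLUT2 of liver and yolk sac, at 0.67 and 44.4 CPM, and Slc2a8 at 12.8 and 12.6 CPM. E8.5 plate 1 had 188.2 CPM of Slc2a2 and the median of the E8.5 plates was 0.28 CPM, and without plate 1 the E8.5 level was 5.92 CPM. Of the lactate and pyruvate genes, 1 of 9 was at least 2-fold higher, Pfkfb4 (7.29 and 29.2 CPM), whose product makes an activator of phosphofructokinase. Without E8.5 plate 1, which had 94.6 CPM, its E8.5 level was 11.7 CPM and the log2 ratio 0.62, under 2-fold. Slc16a3, the lactate exporter MCT4, had 434.4 and 268.2 CPM, and Pdk1 79.4 and 102.9 CPM. Of the 8 hypoxia genes, 1 was at least 2-fold lower, Ndrg1 (40.7 and 10.02 CPM), and the median log2 ratio of that list was -0.05. Bnip3, which has a part in removing mitochondria, had a log2 ratio of -0.97, and P4ha1, a collagen prolyl hydroxylase subunit, one of 0.62.

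In the named embryos, 41 genes of these lists were tested. In visceral endoderm-like cells 3 were called higher and 4 lower, 17.1% of them in all, and in extraembryonic ectoderm-like cells 3 higher and 3 lower, 14.6%, beside 3.93% and 3.58%, and 2.2% and 3.24%, of all genes. Definitive endoderm-like cells had 2 called higher and 0 lower, beside 0.47% and 0.191% of all genes. Epiblast-like cells had 1 higher and 2 lower, beside 1.14% and 1.25%. Extraembryonic mesoderm and allantois-like cells had 0 called, beside 0.441% higher and 0.255% lower. Primitive streak-like cells also had 0, beside 0.278% and 0.139%. Such shares leave few calls to be found among 41 genes. Of the 14 further enzymes tested, 0 were called in primitive streak-like, epiblast-like, definitive endoderm-like or extraembryonic mesoderm and allantois-like cells. With 2 to 4 embryos per class, a gene that was not called can still differ. In visceral endoderm-like cells Gapdh (-2.67) and Pgam1 (-1.22) were called lower. In extraembryonic ectoderm-like cells Eno3 (-2.57) and Gapdh (-1.42) were called lower. Gapdh has many near-identical pseudogenes, and its low counts are uncertain for that reason. Slc16a1, the lactate and pyruvate carrier MCT1, was called higher in visceral endoderm-like cells (3081 against 268.3 CPM, log2 fold change 3.41) and in definitive endoderm-like cells (1674 CPM, 2.89). These are the classes in which Slc2a3 was called highest. Pdk1, which restrains the entry of pyruvate into mitochondria, was called higher in extraembryonic ectoderm-like cells (202.4 against 32.7 CPM, 2.81), and Mpc2, a subunit of the mitochondrial pyruvate carrier, was called lower in epiblast-like cells (4.77 against 44.5 CPM, -3.15). Pdk3, of the same kinase family as Pdk1, was called lower in visceral endoderm-like cells (15.9 against 81.02 CPM, -2.40). Of the hypoxia genes, Bnip3 was called higher in extraembryonic ectoderm-like (133.97 against 56.3 CPM, 1.22) and epiblast-like cells (114.7 CPM, 1.18). P4ha1 was called higher in definitive endoderm-like (261.2 against 113.3 CPM, 1.25) and lower in epiblast-like cells (53.3 CPM, -1.03). Epas1, which encodes HIF-2 alpha, had no read in the nascent mesoderm-like sums and was called higher in extraembryonic ectoderm-like (9.12 and 9.37 CPM) and visceral endoderm-like cells (1.49 and 28.2 CPM). In extraembryonic mesoderm and allantois-like cells it had 13.01 to 15.97 CPM but was not called (edgeR adjusted p = 0.020). The carrier gene Slc2a10 was called lower in extraembryonic ectoderm-like and visceral endoderm-like cells, with no read in either and 0.0350 to 16.8 CPM in the nascent mesoderm-like sums.

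Over the 19 plates, the gene whose log2 CPM went most closely with Ldha was Eno1, the enolase of the same route (Pearson r = 0.88), followed by Aldoa (0.88) and Nme7 (0.85). Slc2a3 went most with Palm3 (0.96), Ezr (0.93) and Krt7 (0.91), and Slc2a1 with Rhod (0.93), Chpf (0.92) and Plxnb2 (0.92). Ldhb went most with Krtcap3, Zic2 and Zscan10 (each 0.96). These were the highest of 9886 genes, and plates share depth, stage and mix of classes, so the values describe the plates. Among the members, Pfkl and Pkm were closest (0.93), and Hk1 and Ldhb farthest apart (-0.70).

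Reads of near-identical copies were few at the copies themselves. The second Aldoa identifier (ENSMUSG00000114515, chromosome 7, 126800790 to 126809108) held 1938 reads, 0.0674% of those of the main one. Ldha-ps2, a processed pseudogene, held 24708 reads, 0.363% of those of Ldha, and Pgk1-rs7 held 0.223% of those of Pgk1. How the counting shared reads between copies was not stated, so the levels of Aldoa, Pgk1, Ldha and Gapdh may be too low by reads that matched several places.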

How the data were processed

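Single-cell Smart-seq2 libraries of 1824 wells were mapped by the authors with HISAT2 2.1.0 to GRCm38 and counted per gene with featureCounts, and the deposited values are raw read counts for 55487 Ensembl genes, with no normalization. The strand setting and the handling of reads with several matches are not given in the sources used here. Symbols and positions were taken from GENCODE M21 (55141 identifiers matched). Cells with at least 100000 reads, at most 10% mitochondrial (37 genes) and 20% ribosomal reads (403 genes) were kept, 1634 of 1824, with 100941 to 6162793 reads and between 57 and 94 cells per plate. No doublet caller was run, since DAPI-negative singlets were sorted into wells. No 2 cells had identical counts. The members and gene lists were chosen with earlier results of these data known, and the rule for naming clusters was set after clusters had been seen. The genes named are the members, up to 3 genes of each list with the largest log2 ratio in a comparison among those with at least 10 CPM in either group, and the 3 genes most alike in plate pattern to Slc2a1, Slc2a3, Ldha and Ldhb. Pgam1, Slc2a10, and Gapdh and Epas1 in extraembryonic ectoderm-like cells, were named after their values were seen. So were the listed genes that went the same way in every class found at both stages. The values of 1 gene of the lists are not reported here.

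CPM (reads of a gene per 1e+06 reads) were taken from summed counts, with exact Poisson 95% intervals for levels and exact binomial 95% intervals for shares of cells, and stage and class ratios as log2(CPM + 1). Clusters were made with scanpy 1.11.5 (counts scaled to 10000 per cell, 2000 variable genes, 30 components, 15 neighbours, Leiden resolution 1) without the 55 listed genes. Counts summed by embryo and class, with at least 5 cells, were tested with edgeR 4.0.16 in R 4.3.3 (quasi-likelihood, TMM, embryo as block, Benjamini-Hochberg, adjusted p below 0.01 and at least 2-fold). A number marks the same animal, so embryos pair the classes by design. Alternatives were other read minimums, normalizations, filters, cell minimums, clusterings, lengths, DESeq2 1.42.0 and leaving out each plate or embryo.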

Additional observations from a re-analysis of the deposited data

How the results depend on the processing

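Of the alternative values for results that answer a comparison, 63 moved beyond the limits set for them and 0 that had passed a threshold changed sign. The members at least 2-fold higher at E8.5 went from 0 to 1 with E7.5 lane plates alone (Slc2a3, log2 ratio 1.22), with the median of plates (Hk1, 1.35) and without E7.5 lane plate 1 (Hk1, 1.18), and the count over the plates left out ran from 0 to 1. With no CPM minimum, 2.75% of all genes were at least 2-fold higher and 3.43% lower, by construction among more genes. In haematoendothelial-like cells alone the log2 ratio of Slc2a1 to Slc2a3 was 3.07 (E7.5) and 2.95 (E8.5), and that of Ldha to Ldhb 6.30 and 7.94. The Ldha to Ldhb ratio of E8.5 was 7.58 by the median of plates. For single genes, the Slc2a3 stage ratio was -0.38 by the median of plates and 0.21 by the mean over cells, and the Pfkl stage ratio 0.13 in haematoendothelial-like cells. Scalings shifted the median of all genes by -0.0032 (TMM), 0.013 (DESeq2 size factors) and 0.050 (without haemoglobin genes).

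Shares of cells depend on reads and threshold. Without thinning, E7.5 and E8.5 cells with a read were 99.8% for Slc2a1 at E7.5, 94.9 and 90.9% for Slc2a3, 83.3 and 35.4% for Ldhb, 48.3 and 55.7% for Hk1, and 97.5 and 80.7% for Hk2. With at least 10 reads they were 96.5 and 87.1% for Slc2a1, 71.01 and 60.8% for Slc2a3, 54.5 and 10.6% for Ldhb, 9.52 and 14.8% for Hk1, and 69.9 and 14.7% for Hk2.

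In the embryo comparisons, DESeq2 called 5.20% of genes in definitive endoderm-like, 6.79% in epiblast-like, 11.8% in extraembryonic ectoderm-like, 4.90% in extraembryonic mesoderm and allantois-like, 3.24% in primitive streak-like and 15.1% in visceral endoderm-like cells, and 2 members in primitive streak-like cells. Without a filter on low counts the shares were 1.36% in epiblast-like, 2.83% in extraembryonic ectoderm-like, 0.436% in extraembryonic mesoderm and allantois-like and 3.78% in visceral endoderm-like cells, and with a minimum of 4000 reads 0.445% in extraembryonic mesoderm and allantois-like cells, where no primitive streak-like value could be had. With at least 10 cells per sum, 1 member and 0.552% of genes were called in epiblast-like and 0 members and 0% of genes in primitive streak-like cells, in fewer sums (Slc2a3 adjusted p = 0.024 and 0.11, edgeR). In definitive endoderm-like cells 1 member in place of 2 was called without the filter, with the minimum of 4000 reads and without embryo 4. Without the replicate block, which pairs classes of 1 embryo, 1 member was called there, and the block changed no other count of members. Leaving out 1 embryo, members called ran from 1 to 2 in definitive endoderm-like cells, and shares of all genes called ran from 0.394 to 0.519% there, from 0.774 to 1.44% in epiblast-like, 3.50 to 3.69% in extraembryonic ectoderm-like, 0.154 to 0.605% in extraembryonic mesoderm and allantois-like, 0.0960 to 0.191% in primitive streak-like and 4.81 to 5.01% in visceral endoderm-like cells.

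Of 13 values of single members that crossed the threshold of the embryo test, 4 are the Slc2a1 values in definitive endoderm-like cells, 2 the Slc2a3 values with at least 10 cells per sum, and Ldhb accounts for 6. Ldhb was called higher in epiblast-like cells by DESeq2 (1.12) and lower in extraembryonic mesoderm and allantois-like cells by DESeq2 (-1.61), without the filter (-1.67) and without embryo 5 (-2.42). Hk1 was called higher in primitive streak-like cells by DESeq2 (2.11). In alternatives chosen after seeing the data, the Pklr stage ratio became -0.20 without E8.5 plate 1, and the paralog ratios of classes were taken with the longest transcript as length. Of the class ratios, centring within plates changed the most, with 12 past 2-fold gained and 15 lost of 240. The cause was not tested for any of these.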
